A study of Mus musculus with 6 samples.

Results

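The genes described here are the core of the transforming growth factor beta (TGF-β) pathway: the ligands *Tgfb1*, *Tgfb2* and *Tgfb3*, the latent binding protein *Ltbp1*, the receptors *Tgfbr1*, *Tgfbr2* and *Tgfbr3*, and the signal transducers *Smad2*, *Smad3* and *Smad4*. They were chosen by symbol, with earlier results of these data known, and are 10 of the 32285 genes counted. All 10 had transcripts in every library, from 912 UMIs (unique molecular identifiers, each standing for 1 captured mRNA molecule) for *Smad3* to 27815 for *Tgfb1* over all kept cells.

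TGF-β ligands are secreted in a latent form, in which a propeptide holds the ligand, and latent TGF-β binding proteins such as Ltbp1 tether this complex to the extracellular matrix until it is activated. Active ligand binds the type II receptor Tgfbr2, which recruits and phosphorylates the type I receptor Tgfbr1. Tgfbr3 (betaglycan) is a co-receptor that presents ligand, above all Tgfb2. Tgfbr1 phosphorylates Smad2 and Smad3, which join Smad4 and enter the nucleus. In endothelial cells (ECs) another type I receptor, Alk1 (gene *Acvrl1*), with the co-receptor endoglin (*Eng*), signals mainly for BMP9 and BMP10 through other Smads. In skin, TGF-β acts on blood and lymphatic vessels, on fibroblasts and on hair follicles.

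Expression was measured by droplet single-cell RNA-seq of tdTomato+ cells sorted from the dorsal skin of 6 mice, with 1 library per mouse and 2 mice per group. WT telogen (resting hair follicles, PD20, postnatal day 20) and WT anagen (growing follicles, PD32) mice were tdTomato;Cdh5-CreERT2;Krt14-H2BGFP on a C57BL/6;CD1 background. Alk1 KO mice (PD25, telogen) carried Alk1 flox/flox, tdTomato and Cdh5-CreERT2, without Krt14-H2BGFP, on C57BL/6. All groups received tamoxifen (200 µg/g) at PD17, so tdTomato marks cells in which the VE-cadherin (*Cdh5*) promoter drove Cre at that time and their descendants, which need not be endothelial. The study describes the immune cells and fibroblasts among its sorted cells as contaminants that lack *Cdh5*. Whether the immune and fibroblast-like cells of the KO libraries carried the deletion was not tested. The genotype field of the KO samples reads wild type, against their titles and descriptions, which were followed. Alk1 KO and WT telogen mice also differed in age, strain, the H2BGFP allele and the experiment, and these cannot be told apart from the deletion.

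The libraries held 10615358 to 43317677 UMIs, and 1713 to 5106 cells each were kept, with a median of 4371 to 6935 UMIs per cell. Library pairs shared 1 to 8 of their kept cell barcodes. *Acvrl1*, the targeted gene, was at 217.4 and 191.4 CPM (UMIs of a gene divided by all UMIs of the cells summed, on the usual CPM scale) in telogen blood ECs and at 175.5 and 169.5 CPM in KO blood ECs. Its reads are 3′ tags and their place relative to the floxed exons is not given in the sources used here, so this level checks nothing. In the non-lymphatic ECs, the female transcript *Xist* was at 968.9 CPM in telogen S1 and at 755.8 and 685.8 CPM in the KO libraries, whereas the Y-linked *Ddx3y* was at 106.9 CPM in telogen S2 and at 97.59 and 101.3 CPM in the anagen libraries. *Ddx3y* was at 0 in the 3 libraries with high *Xist*, and *Xist* was at 0 CPM in telogen S2 and at 0.05216 and 0.05363 CPM in anagen. Sex therefore also cannot be told apart from the deletion against telogen S2, and from the stage against telogen S1. Clusters were named from marker genes without using the pathway genes. The EC clusters carry the study's names (Artery, Vein, Cap-Kdr and Cap-Rgcc capillaries, collecting Lymph-Col, capillary Lymph-Cap), and the others are called perineurial-like, pericyte-like, fibroblast-like and so on. The endothelial markers were present in every EC population, and the perineurial-like markers summed to between 6021 and 9544 CPM in the cells of that name.

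In the mouse genome, *Tgfb2* lies at chr1:186622792-186705989 (minus strand), *Tgfbr2* at chr9:116084293-116175360 (minus strand) and *Ltbp1* at chr17:75005568-75392512 (plus strand) in GRCm38. Several results below turn on *Tgfb2*, *Tgfbr2* and *Ltbp1*, so the 250 bases before their annotated transcription starts are shown (RefSeq, GRCm38.p6). Capitals mark CAGAC or its reverse complement GTCTG, the core of the element that Smad3 and Smad4 can bind. *Ltbp1* has a pair of annotated starts, at which long and short forms begin.

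Tgfb2 (chr1:186705990-186706239, minus strand): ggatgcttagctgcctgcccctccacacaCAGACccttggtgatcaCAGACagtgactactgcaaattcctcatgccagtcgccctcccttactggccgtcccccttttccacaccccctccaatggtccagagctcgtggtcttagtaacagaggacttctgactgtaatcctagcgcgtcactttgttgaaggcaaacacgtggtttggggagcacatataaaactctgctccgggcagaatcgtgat
Tgfbr2 (chr9:116175364-116175613, minus strand): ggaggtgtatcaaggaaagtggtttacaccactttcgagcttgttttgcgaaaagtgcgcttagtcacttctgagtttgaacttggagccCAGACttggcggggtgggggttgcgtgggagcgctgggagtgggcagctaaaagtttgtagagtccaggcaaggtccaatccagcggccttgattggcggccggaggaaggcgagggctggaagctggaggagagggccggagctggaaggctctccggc
Ltbp1 upstream start (chr17:75005279-75005528, plus strand): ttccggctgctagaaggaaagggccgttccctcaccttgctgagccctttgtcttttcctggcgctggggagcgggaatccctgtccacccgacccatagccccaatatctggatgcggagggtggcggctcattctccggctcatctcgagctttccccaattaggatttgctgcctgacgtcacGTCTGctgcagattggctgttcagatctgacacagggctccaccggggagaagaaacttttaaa
Ltbp1 downstream start (chr17:75178531-75178780, plus strand): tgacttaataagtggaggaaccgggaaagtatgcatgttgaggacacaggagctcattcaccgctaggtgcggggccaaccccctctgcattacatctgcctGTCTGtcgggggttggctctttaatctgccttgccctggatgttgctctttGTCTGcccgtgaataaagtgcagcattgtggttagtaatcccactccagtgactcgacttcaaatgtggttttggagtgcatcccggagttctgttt

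The Tgfb2 window held 2 matches, the Tgfbr2 window 1, and the Ltbp1 windows 1 and 2. Promoter windows were found for 6 of the 10 members, of which those of *Tgfb1* and *Smad3* held no match and the 2 of *Tgfbr1* held 0 and 1. Of all 32851 promoter windows of this length, 42.2% held at least 1 match, so a match was common. The longer GC-rich element GGCGCC was found in 1 window, that of the upstream start of *Tgfbr1*, against 9.59% of all windows. A match is a stretch of letters and not a measured binding site.

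The ligands divided the sorted populations. *Tgfb1* was present in every EC and immune population and was low in fibroblast-like cells and in the cells of the nerve sheath. Its level in blood ECs (Artery, Vein, Cap-Kdr and Cap-Rgcc summed) was 201.9, 177, 202 and 170.6 CPM in telogen S1, telogen S2, anagen S1 and anagen S2, and in perineurial-like cells it was 27.6, 21.24, 29.31 and 22.38 CPM. No perineurial-like value came near the blood ECs (log2 fold change −3.08, SE 0.10, adjusted p = 5.57e-09, quasi-likelihood test in edgeR, with adjustment over every gene tested by the Benjamini-Hochberg method, as for each adjusted p below). *Tgfb1* was as clearly lower in fibroblast-like cells (−2.65, adjusted p = 1.38e-07) and, in 3 libraries, in Schwann-like cells (−2.55, adjusted p = 1.51e-07). From the highest population, Lymph-Col (256.6 ± 18.35 CPM, SD, n = 4), down to Vein (124.2 ± 16.23 CPM), every neighbour in the order of 13 populations overlapped the next, and the single gap lay between Vein and fibroblast-like cells (25.52 ± 5.444 CPM). In T/NK-like cells, which only the telogen libraries held in number, *Tgfb1* was at 484.6 and 502.6 CPM.

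*Tgfb2* was an arterial and lymphatic capillary transcript among ECs. Artery held 103.1, 91, 67.77 and 138.4 CPM in the 4 WT libraries, and Vein held 2.507, 4.532, 3.047 and 3.342 CPM. The lowest Artery library was thus far above the highest Vein library. Against the other blood ECs *Tgfb2* was higher in Artery by 3.56 on the log2 scale (SE 0.18, adjusted p = 1.73e-08) and was lower in Vein (−3.98), Cap-Kdr (−2.25) and Cap-Rgcc (−1.77). Lymph-Cap held 54.5, 79.95, 107 and 65.5 CPM and Lymph-Col 15.94, 15.04, 20.41 and 14.69 CPM. The lymphatic populations did not overlap, and the difference was 2.16 (SE 0.17, adjusted p = 8.01e-12). Fibroblast-like cells (77.15 ± 30.04 CPM) and pericyte-like cells (48.83 ± 11.35 CPM) also held *Tgfb2*, as did Schwann-like cells (36.61, 12.67 and 19.01 CPM in 3 libraries) and the unnamed EC cluster (21.78 ± 13.79 CPM), and perineurial-like cells were at 8.977 ± 2.662 CPM.

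*Tgfb3* was nearly absent from blood ECs and present in lymphatic ECs and in every stromal and nerve-sheath population. Blood ECs held 0.4974, 1.657, 0.9791 and 0.4439 CPM, and lymphatic ECs (Lymph-Col and Lymph-Cap summed) held 34.06, 24.59, 31.79 and 28.47 CPM. This was the widest lymphatic difference among the 10 members, at 5.12 (SE 0.25, adjusted p = 3.68e-09). Lymph-Cap (46.86 ± 4.211 CPM) stood above all other populations without overlap, and above Lymph-Col (22.23 ± 5.376 CPM) by 1.01 (SE 0.18, adjusted p = 4.83e-05). Pericyte-like (24.65 ± 7.847 CPM), perineurial-like (21.86 ± 5.166 CPM) and fibroblast-like cells (13.96 ± 5.717 CPM) followed, and their neighbours in the order overlapped. Their differences from blood ECs were 4.66, 4.48 and 4.41.

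**Figure D1:**
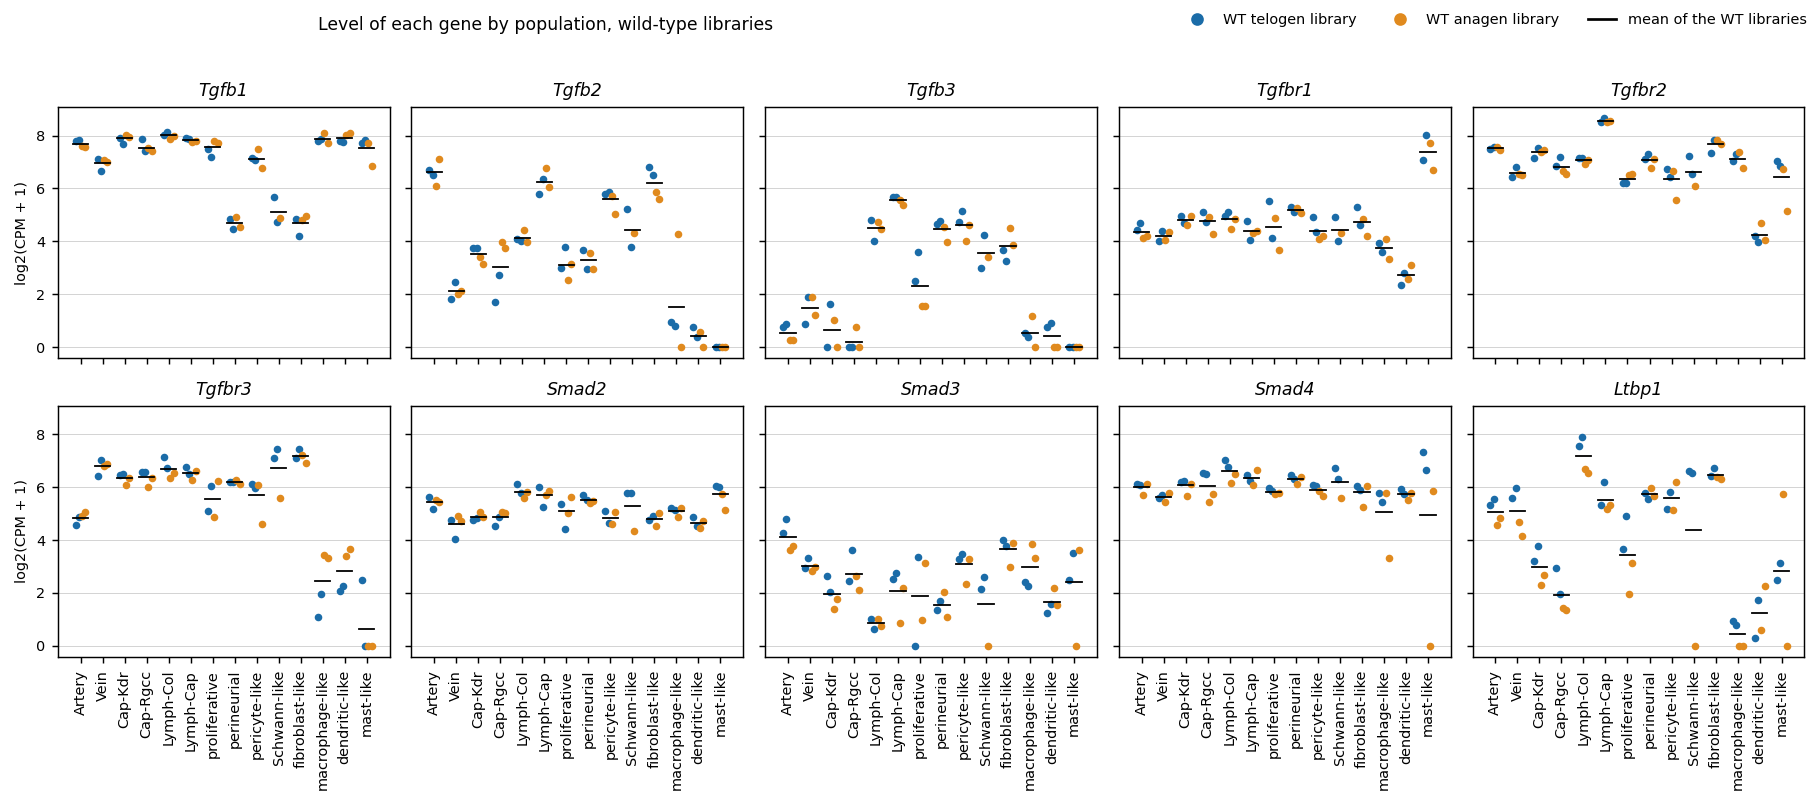
Levels of the 10 members in 14 populations of the 4 WT libraries, one panel per gene, as log2(CPM + 1) on the value axis, with points for libraries and a bar at the mean of the log2 values. *Tgfb2* peaks in Artery at 100.1 CPM on average, *Tgfb3* is under 2 CPM in each of the 4 blood EC populations on average and 46.86 CPM in Lymph-Cap, and *Ltbp1* is highest in Lymph-Col at 154.2 CPM.

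*Ltbp1*, which stores latent ligand in the matrix, was highest in the collecting lymphatics. Lymph-Col held 187.6, 235.9, 101 and 92.12 CPM, with both telogen libraries above both anagen libraries. Lymphatic ECs exceeded blood ECs by 2.29 (SE 0.11, adjusted p = 2.8e-09), and Lymph-Cap lay below Lymph-Col by 1.75 (log2 fold change −1.75, SE 0.14, adjusted p = 2.33e-11). Within blood vessels the larger vessels held more than the capillaries. Artery was at 33.85 ± 10.48 CPM and Vein at 37.74 ± 20.58 CPM, against 7.541 ± 3.799 CPM in Cap-Kdr and 3.198 ± 2.38 CPM in Cap-Rgcc. The differences from the other blood ECs were 1.08 and 0.94 in Artery and Vein, whose library ranges overlapped those of the others and whose calls were lost without the library as a block (adjusted p = 0.128 and 0.069), and −2.08 and −3.11 in Cap-Kdr and Cap-Rgcc. Outside the endothelium, *Ltbp1* was higher than in blood ECs in fibroblast-like cells (87.27 ± 11.74 CPM, 2.23), perineurial-like cells (53.13 ± 7.076 CPM, 1.11), pericyte-like cells (49.67 ± 18.5 CPM, 0.98) and Schwann-like cells (97.62, 91.23 and 0 CPM in 3 libraries, 1.17). Without telogen S1 the Schwann-like difference was 0.81 (adjusted p = 0.179), and without anagen S1 the pericyte-like difference was 0.87 (adjusted p = 0.0565). Macrophage-like cells held 0.9043, 0.7401, 0 and 0 CPM, which was lower than blood ECs by 5.19 (log2 fold change −5.19, adjusted p = 5.74e-08).

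*Tgfbr2*, the receptor that first binds ligand, marked the lymphatic capillaries. Lymph-Cap held 367.3, 402.6, 359.9 and 377.8 CPM and Lymph-Col 141.9, 142.9, 121.1 and 135.5 CPM. Every Lymph-Cap library lay above every library of the 12 other ranked populations, and the difference from Lymph-Col was 1.43 (SE 0.10, adjusted p = 7.23e-13). Among blood ECs, Artery was higher than the rest (182.4 ± 6.821 CPM, 0.58) and Vein lower (94.86 ± 12.16 CPM, −0.69). Fibroblast-like cells (203.6 ± 29.97 CPM) were above blood ECs by 0.78. Pericyte-like cells (84.21 ± 26.62 CPM) were below them (−0.72), and so were Schwann-like cells (−0.60, and −0.46 with an adjusted p of 0.281 without telogen S2). The pericyte-like call was lost with fewer than 5% mitochondrial UMIs per cell (−0.42, adjusted p = 0.0927). Dendritic-like cells were lowest, at 18.12 ± 4.737 CPM.

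*Tgfbr1*, the signalling kinase, was at 17.44 ± 2.468 CPM in Vein, the lowest EC mean, and at 28.03 ± 5.215 CPM in Lymph-Col, the highest of the named EC populations. The EC cluster left unnamed was at 41.78, 55.97, 27.96 and 23.29 CPM. In the sums, lymphatic and blood ECs differed by 0.13 (SE 0.12, adjusted p = 0.357). In Cap-Rgcc the difference from other blood ECs was 0.52 (adjusted p = 0.024), which fell to 0.33 (adjusted p = 0.355) without anagen S1 and to 0.46 (adjusted p = 0.0671) without telogen S1. Mast-like cells stood apart, at 134.7, 259, 209.4 and 102.3 CPM, with every library above all libraries of the 12 other ranked populations. The anagen S1 and S2 values came from 11 and 22 mast-like cells, against 74 and 155 in telogen S1 and S2. Among the ranked populations, which leave out the unnamed EC cluster, perineurial-like cells (35.72 ± 2.732 CPM) were next. They exceeded blood ECs by 0.56 (SE 0.10, adjusted p = 0.000894). In fibroblast-like cells the difference of 0.56 (adjusted p = 0.029) was lost without telogen S1 (0.33, adjusted p = 0.219) and without anagen S1 (0.53, adjusted p = 0.0669).

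*Tgfbr3*, the co-receptor, ran opposite to *Tgfb2* in the blood vessels. Artery held 22.59, 28.13, 28.93 and 31.97 CPM and Vein 85.25, 130.5, 110.9 and 115.8 CPM. Artery was lower than the other blood ECs (−1.67, SE 0.11, adjusted p = 1.32e-07) and Vein was higher (1.03, SE 0.09, adjusted p = 6.65e-07). Lymphatic ECs were higher than blood ECs by 0.41, and by 0.24 (adjusted p = 0.0905) without telogen S1. The Cap-Rgcc difference of 0.44 was at 0.34 (adjusted p = 0.0501) without the same library. Fibroblast-like cells held the most, at 144.7 ± 22.02 CPM, above blood ECs by 1.297. Schwann-like cells were above blood ECs by 0.70, a call lost without either telogen library (0.47 in both cases, adjusted p = 0.356 and 0.34). Macrophage-like cells (5.712 ± 4.365 CPM, −4.27), dendritic-like and mast-like cells were lowest.

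*Smad2* and *Smad4* spanned narrow ranges, with the highest population 2.34-fold and 2.51-fold above the lowest, against 10.2-fold for *Tgfb1*. *Smad2* means ran from 23.96 ± 5.979 CPM in Vein to 56.11 ± 8.9 CPM in Lymph-Col, and all 12 pairs of neighbours in the order overlapped. It was higher in lymphatic than in blood ECs (0.66, SE 0.11, adjusted p = 0.000294), higher in Artery (0.59) and lower in Vein (−0.46, and −0.45 with an adjusted p of 0.0575 without anagen S2). *Smad4* means ran from 39.65 ± 21.15 CPM in macrophage-like cells to 99.42 ± 25.1 CPM in Lymph-Col, again with every neighbour overlapping, and lymphatic ECs were higher by 0.55 (SE 0.09, adjusted p = 0.00021). The macrophage-like mean includes 9.021 CPM in anagen S2, which held 15 such cells, so the low end of the *Smad4* range is uncertain. Vein, the next in the order, was at 48.5 ± 4.968 CPM.

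*Smad3*, the other receptor-activated Smad, was highest in Artery among the 13 ranked populations. Artery held 18.36, 26.47, 11.33 and 12.67 CPM and Lymph-Col 1.028, 0.5373, 1.038 and 0.6675 CPM. Artery exceeded the other blood ECs by 1.57 (SE 0.17, adjusted p = 1.45e-05), and Cap-Kdr was lower (−2.09, adjusted p = 7.63e-06). Lymphatic ECs were lower than blood ECs (−2.54, SE 0.26, adjusted p = 3.83e-06), and so were perineurial-like cells (−2.50, adjusted p = 4.21e-05). In Schwann-like cells *Smad3* was at 3.486, 5.068 and 0 CPM (−1.76, adjusted p = 0.0346, lost without either telogen library at 0.196 and 0.18). The fibroblast-like difference of 0.64 (adjusted p = 0.031) was at 0.54 (adjusted p = 0.142) without telogen S1 and 0.51 (adjusted p = 0.107) without anagen S2. T/NK-like cells held 53.62 and 39.02 CPM in the telogen libraries.

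The counts of members called (a fold above 1.3 together with an adjusted p under 0.05) are given beside the share of all genes called in the same comparison, which was large throughout. In lymphatic against blood ECs 7 of 10 were called, against 48.3% of all genes. The counts were 6 of 10 against 64.7% in perineurial-like cells, 4 of 10 against 32.9% in pericyte-like cells, 8 of 10 against 56.8% in fibroblast-like cells, 6 of 10 against 38.0% in Schwann-like cells and 3 of 9 against 53.6% in macrophage-like cells. Among the blood ECs, 6 of 9 were called in Artery against 32.6%, 6 of 9 in Vein against 31.1%, 3 of 9 in Cap-Kdr against 30.7% and 4 of 9 in Cap-Rgcc against 37.6%. Between the lymphatic populations 4 of 9 were called against 35.5%. The pericyte-like call for *Tgfb1* (−0.42) was lost without telogen S1 (−0.44), telogen S2 (−0.48) or anagen S2 (−0.35), with adjusted p of 0.0646, 0.0638 and, under the required fold, 0.0106.

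The other pathway genes, 37 in all, were taken from lists of genes for latency and activation, receptors, Smad partners and feedback, and reported targets. In Artery 20 of the 33 tested were higher than in other blood ECs and 5 were lower, with 9 of the 10 Smad partners and feedback genes higher. Of all 10617 genes tested there, 1745 were higher and 1712 lower. The targets with the widest differences were the matrix protein fibronectin (*Fn1*, 4.93) and the collagen cross-linking enzyme *Lox* (4.18). In Vein 7 were higher and 19 lower (31.1% of all genes called), in Cap-Kdr 0 were higher and 16 lower (30.7%), and in Cap-Rgcc 4 were higher and 16 lower (37.6%). In lymphatic ECs 12 of 34 were higher and 13 lower (48.3%). The integrin subunit *Itgb8*, part of an activator of latent TGF-β, was at 25.81, 24.59, 9.634 and 6.8 CPM in lymphatic ECs against 0.2487, 0.2761, 0 and 0.06341 CPM in blood ECs (6.81), and at 197, 240.7 and 171.1 CPM in Schwann-like cells (10.29). The inhibitory Smad of the BMP branch, *Smad6*, ran the other way, at 0, 0, 0.2409 and 0.425 CPM in lymphatic ECs against 28.2 to 34.32 CPM in blood ECs.

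Hair cycle stage was then compared within each population, to ask which members differed between telogen and anagen. *Ltbp1* in Lymph-Col was the single member called. It was at 187.6 and 235.9 CPM in telogen and at 101 and 92.12 CPM in anagen (log2 fold change −0.99, SE 0.19, adjusted p = 0.0302), and the stages did not overlap. The call was lost with fewer than 5% mitochondrial UMIs per cell (−0.72, adjusted p = 0.182) and without telogen S2 (−0.82, adjusted p = 0.487). *Ltbp1* was also lower in both anagen libraries in Artery (39.54 and 45.5 against 22.86 and 27.48 CPM, −0.64, adjusted p = 0.169), in Vein (47.64 and 61.64 against 24.76 and 16.93 CPM, −1.30, adjusted p = 0.0623), in Cap-Kdr (−1.19, adjusted p = 0.45) and in Lymph-Cap (−0.50, adjusted p = 0.478), none of which was called. In perineurial-like cells it was at 54.43 and 45.51 CPM in telogen and 62.23 and 50.36 CPM in anagen (0.24, adjusted p = 0.595). The difference between stages was therefore compared between perineurial-like cells and blood ECs, and it was more positive in the former by 1.39 (SE 0.24, adjusted p = 0.0222). Without telogen S2 this was 1.13 (adjusted p = 0.0621). Between lymphatic and blood ECs the stage difference of *Ltbp1* differed by 0.16 (SE 0.20, adjusted p = 0.883).

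In Lymph-Col 1 of 9 members was called against 1.59% of all genes. No member was called of 9 for Artery, where 0.545% of all genes were, of 8 for Vein (0.432%), of 8 for Cap-Kdr (0%, with 834 genes at an unadjusted p under 0.05), of 7 in Cap-Rgcc (1.07%), of 9 in Lymph-Cap (0.537%), of 9 in perineurial-like (0.609%), of 9 in pericyte-like (0.0465%), of 10 in fibroblast-like (0.355%) and of 7 in macrophage-like cells (3.22%). Over the 10 populations, 12 of the 85 member tests (14.1%) had an unadjusted p under 0.05, that of *Ltbp1* in Lymph-Col included, against 14.2% of the tests of all genes, and the Wald test of DESeq2 called 1. *Tgfb2* in Cap-Rgcc, for example, was at 2.221 and 5.695 CPM in telogen and 14.77 and 12.29 CPM in anagen (1.95, SE 0.67, adjusted p = 0.175), and *Tgfb2* in fibroblast-like cells was at 112.6 and 90.77 against 57.89 and 47.29 CPM (−0.85, SE 0.22, adjusted p = 0.16). Of the responses compared between populations, 0 of 10 members differed between lymphatic and blood ECs (0.0928% of all genes) and 1 of 10 between perineurial-like cells and blood ECs (0.783%). Among the other pathway genes, *Itgb8* (−1.35) was lower at anagen in Lymph-Col, and *Eng* was higher in perineurial-like cells (10.42 and 8.091 against 22.63 and 29.65 CPM, 1.61). The endothelial markers in the same cells summed to 334.1 and 382.3 CPM in telogen and 561.1 and 548 CPM in anagen, blood ECs held 501.3 to 618.8 CPM of *Eng*, and the part of endothelial RNA in this difference was not tested.

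**Figure D2:**
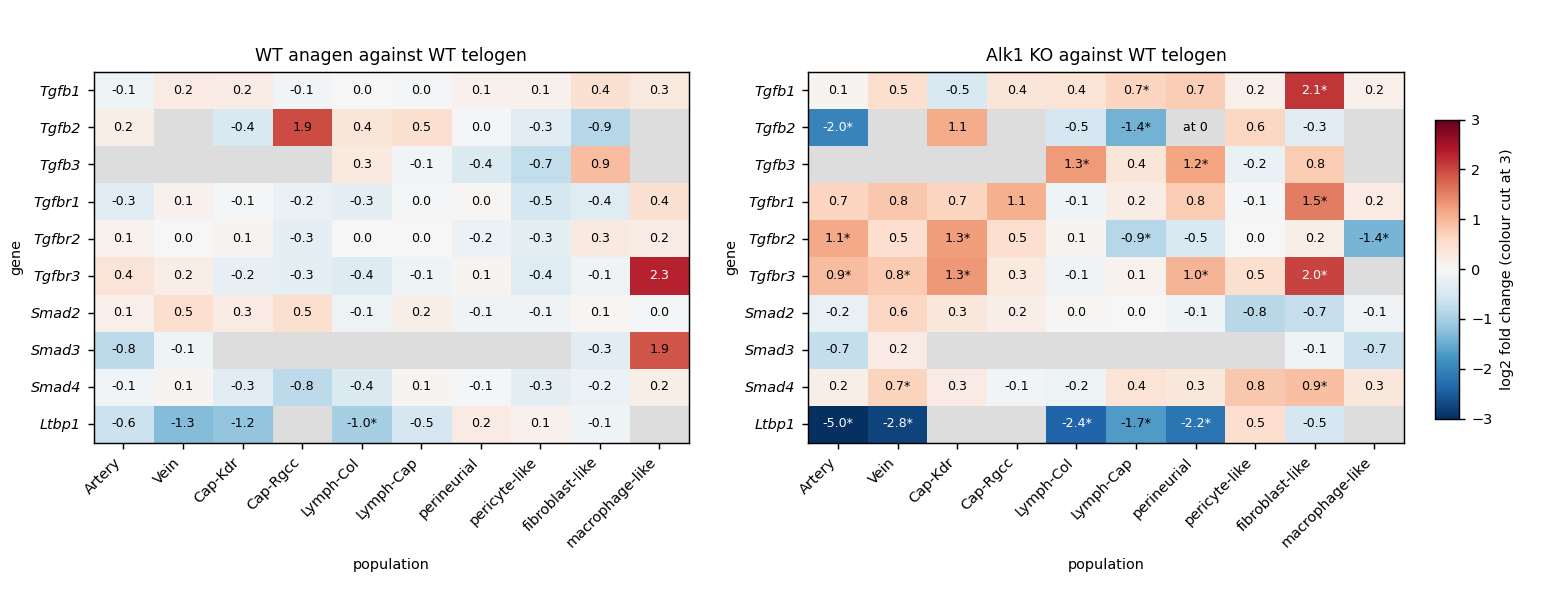
Log2 fold changes of the 10 members in 10 populations, anagen against telogen in the left panel and Alk1 KO against WT telogen in the right, with a star for called differences, grey for members that were not tested, and "at 0" where a group had no UMI. The left panel holds 1 star (*Ltbp1* in Lymph-Col, −0.99) and the right 23, with *Ltbp1* lower in 5 populations and *Tgfbr3* higher in 5.

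Alk1 KO was compared with WT telogen, to ask how the pathway differed after the deletion. *Ltbp1* was lower in every population of large or lymphatic vessels. In Artery it was at 39.54 and 45.5 CPM in telogen and at 1.752 and 0.7963 CPM in KO, where the libraries held 2 and 1 UMIs (log2 fold change −4.97, SE 0.49, adjusted p = 3.48e-05). In Lymph-Col it was at 187.6 and 235.9 CPM against 38.93 and 43.77 CPM (−2.41, SE 0.19, adjusted p = 1.34e-05). The KO libraries lay far below both telogen libraries in each. Vein held 47.64 and 61.64 against 11.05 and 3.451 CPM (−2.78, SE 0.40, adjusted p = 0.000386) and Lymph-Cap 39.1 and 72.81 against 21.59 and 13.67 CPM (−1.71, SE 0.33, adjusted p = 0.00447). In perineurial-like cells, *Ltbp1* fell from 54.43 and 45.51 to 11.94 and 10.58 CPM on 4 and 2 UMIs (−2.19, SE 0.45, adjusted p = 0.00501). That call was lost without the correction between libraries (−1.54, adjusted p = 0.0913). In fibroblast-like cells it was at 84.7 and 104.2 against 93.02 and 77.85 CPM (−0.50, SE 0.25, adjusted p = 0.148) and in pericyte-like cells at 35.26 and 56.07 against 68.46 and 69.93 CPM (0.51, SE 0.36, adjusted p = 0.394). The macrophage-like cells of telogen held 0.9043 and 0.7401 CPM of *Ltbp1*. The anagen Artery and Vein libraries, from the same WT line, lay between these groups, at 16.93 to 27.48 CPM.

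The KO differences in the other ligands went in opposite directions. *Tgfb2* was lower in Artery, at 29.79 and 18.32 CPM in KO against 103.1 and 91 CPM in telogen (−2.01, SE 0.24, adjusted p = 0.000129). It was lower in Lymph-Cap too, at 31.73 and 20.31 against 54.5 and 79.95 CPM (−1.42, SE 0.28, adjusted p = 0.00449). In perineurial-like cells it was not detected in 524003 KO UMIs and was at 8.88 CPM in the telogen cells together, so that it was at least 1.55-fold lower by the limit of 3 counts over the group, and it was not called. *Tgfb3* was higher in Lymph-Col, at 67.95 and 41.27 against 27.25 and 15.04 CPM (1.29, SE 0.31, adjusted p = 0.015, and 0.92 with an adjusted p of 0.144 without telogen S2). In perineurial-like cells it was at 59.7 and 63.49 against 24.48 and 26.3 CPM (1.19, SE 0.31, adjusted p = 0.017), a call lost without either telogen library (adjusted p = 0.123 and 0.0929), without KO S1 (0.106) and without the correction between libraries (0.0651). *Tgfb1* was higher in Lymph-Cap, at 358.3 and 413.7 against 237 and 235.6 CPM (0.65, SE 0.15, adjusted p = 0.013, and 0.0593 without telogen S2), and in the few KO fibroblast-like cells, at 82.68 and 159.9 against 27.52 and 17.6 CPM (2.14, SE 0.36, adjusted p = 0.00291). Blood EC populations showed no called difference in *Tgfb1*.

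**Figure D3:**
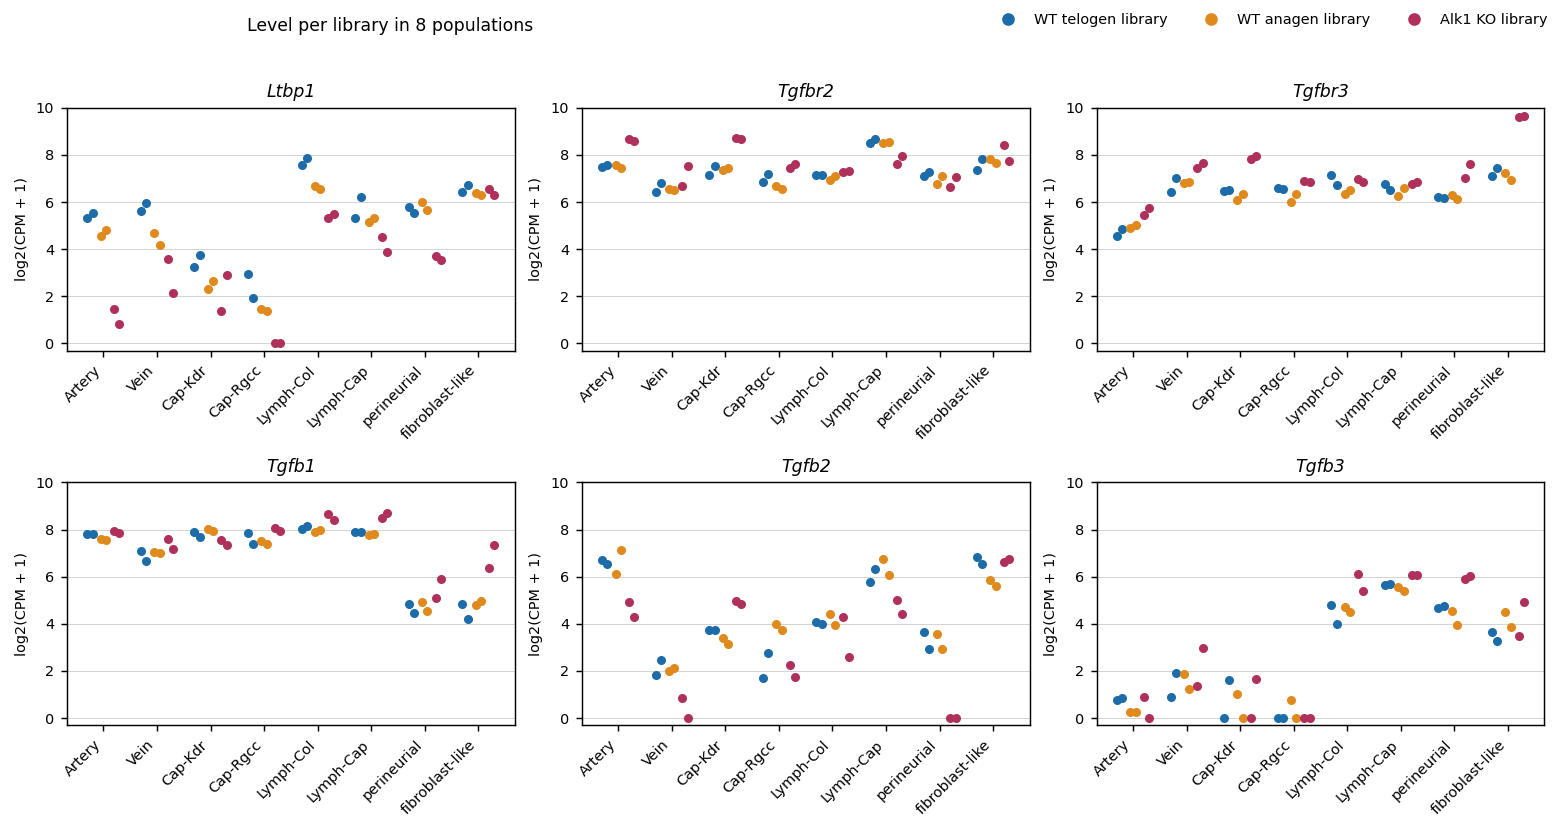
Levels of *Ltbp1*, *Tgfbr2*, *Tgfbr3*, *Tgfb1*, *Tgfb2* and *Tgfb3* in 8 populations, as log2(CPM + 1), with 1 point for each of the 6 libraries coloured by group. The KO points of *Ltbp1* lie below both telogen points in Artery, Vein, Lymph-Col, Lymph-Cap and perineurial-like cells, down to 0.7963 CPM in Artery.

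*Tgfbr2* was called higher in KO in 2 of the 4 blood EC populations and *Tgfbr3* in 3. *Tgfbr2* in Artery was at 413.5 and 389.4 CPM against 179.3 and 187 CPM (1.14, SE 0.15, adjusted p = 0.000254), and every WT library of Artery, anagen included, was at 174.3 to 189 CPM. In Cap-Kdr it was at 423.1 and 409.5 against 142 and 183.7 CPM (1.25, SE 0.20, adjusted p = 0.00121). In Vein the groups overlapped, at 101 and 185.2 against 84.42 and 112.4 CPM (0.51, adjusted p = 0.17), and in Cap-Rgcc it was at 172.1 and 193 against 113.3 and 145.2 CPM (0.50, adjusted p = 0.207). In Lymph-Cap the direction turned, with 192.6 and 247.1 CPM against 367.3 and 402.6 CPM (−0.86, SE 0.16, adjusted p = 0.00365), and in Lymph-Col the groups lay close, at 155 and 158.8 against 141.9 and 142.9 CPM (0.08, SE 0.15, adjusted p = 0.761). Macrophage-like cells were lower (62.41 and 48.88 against 131.8 and 157.6 CPM, −1.40, adjusted p = 0.0127, and 0.0502 or 0.129 without either telogen library), where the median of all genes was at −0.151. *Tgfbr3* was higher in Cap-Kdr, at 226.5 and 245.7 against 87.69 and 89.76 CPM (1.31, SE 0.18, adjusted p = 0.000538), in Artery at 42.93 and 52.56 against 22.59 and 28.13 CPM (0.93, adjusted p = 0.0265), and in Vein at 172.1 and 199 against 85.25 and 130.5 CPM (0.78, adjusted p = 0.0168). Without telogen S1 the Artery and Vein values were 0.77 (adjusted p = 0.156) and 0.52 (adjusted p = 0.267), and without KO S2 the Artery value was 0.80 (adjusted p = 0.103). The Vein value was also 0.36 (adjusted p = 0.368) without the correction between libraries and had an adjusted p of 0.0602 by DESeq2. The Artery value was 0.79 (adjusted p = 0.0665) with fewer than 5% mitochondrial UMIs and had an adjusted p of 0.195 by DESeq2. The Cap-Kdr calls of both receptors were lost without KO S1 (adjusted p = 0.156 and 0.154) or KO S2 (0.132 and 0.131).

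Outside the endothelium, *Tgfbr3* was at 785.5 and 810 CPM in KO fibroblast-like cells against 136.7 and 172.2 CPM (2.04, SE 0.23, adjusted p = 0.000581), and at 128.4 and 195.7 against 73.18 and 71.6 CPM in perineurial-like cells (1.03, SE 0.22, adjusted p = 0.00642, and 0.0564 or 0.0614 without either telogen library). *Tgfbr1* was higher in fibroblast-like cells, at 148.1 and 84.16 against 38.7 and 23.47 CPM (1.53, adjusted p = 0.0143), and at 1.04 (adjusted p = 0.0808) without KO S1. The fibroblast-like cells of the KO were 85 in number, and their fibroblast markers summed to 3497 and 2573 CPM against 6263 and 5699 CPM in telogen, so a different mix of cells under that name and a difference within them cannot be told apart.

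The Smads showed few KO differences. *Smad2* was not called in any of 10 populations, nor *Smad3* in the 4 in which it could be tested. In Artery, for instance, *Smad2* was at 36.8 and 35.04 against 48.71 and 34.75 CPM (−0.22, SE 0.26, adjusted p = 0.615), and *Smad3* at 14.89 and 11.94 against 18.36 and 26.47 CPM (−0.72, SE 0.36, adjusted p = 0.192). *Smad4* was higher in fibroblast-like cells, at 134.4 and 155.7 against 64.92 and 57.98 CPM (0.91, SE 0.22, adjusted p = 0.0141, lost without either telogen library at 0.0815 and 0.193). In Vein it was at 83.66 and 71.31 against 46.81 and 51.67 CPM (0.66, SE 0.22, adjusted p = 0.0469). That call was lost under 9 alternatives, among them leaving out telogen S1 (0.253), telogen S2 (0.152) or KO S1 (0.167).

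Against the background of all genes, the members called were 4 of 9 for Artery (17.9%), 3 of 8 for Vein (20.7%), 2 of 7 for Cap-Kdr (24.2%), 0 of 6 for Cap-Rgcc (12.1%), 2 of 9 in Lymph-Col (17.7%) and 4 of 9 in Lymph-Cap (15.1%). Outside the endothelium the counts were 3 of 9 in perineurial-like (20.7%), 0 of 9 in pericyte-like (7.07%), 4 of 10 in fibroblast-like (38.1%) and 1 of 6 in macrophage-like cells (13%). KO cells took their EC subtype names partly from the correction between libraries. Without it, 362 of 400 KO Artery cells, 526 of 626 Lymph-Col and 912 of 913 Lymph-Cap cells kept their name, but only 77 of 240 Vein, 26 of 251 Cap-Kdr, 2 of 125 Cap-Rgcc, 59 of 150 perineurial-like and 0 of 85 fibroblast-like cells did. In the Cap-Kdr cells so named, *Tgfbr2* and *Tgfbr3* were at −0.72 and −0.22, the opposite sign.

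The KO comparison was therefore repeated on all non-lymphatic ECs and on all lymphatic ECs, sums chosen after seeing the data. They do not depend on the names of the blood EC subtypes, but they do depend on which clusters were named lymphatic. The unnamed EC and proliferative clusters were counted as non-lymphatic. The makeup of these sums differed between the groups. Lymph-Cap cells were 180 of 543 and 166 of 572 lymphatic ECs in telogen and 406 of 696 and 507 of 843 in KO. The unnamed EC cluster was 70 of 660 and 66 of 701 non-lymphatic ECs in telogen and 174 of 678 and 207 of 719 in KO, and KO held 0 proliferative cells. A change in makeup and a change within cells cannot be told apart in the sums alone. In non-lymphatic ECs *Ltbp1* was at 4.539 and 1.863 CPM in KO against 28.65 and 34.35 CPM in telogen (−3.29, SE 0.32, adjusted p = 0.000145), *Tgfbr2* was at 282.6 and 311.5 against 126.5 and 148 CPM (1.08, SE 0.13, adjusted p = 0.000357), and *Tgfbr3* was at 142.8 and 157.3 against 65.24 and 84.19 CPM (0.98, SE 0.14, adjusted p = 0.000886). In each the KO libraries lay outside the range of all 4 WT libraries. *Tgfb2* was lower (−1.48, adjusted p = 0.000756) and *Tgfbr1* higher (37.74 and 54.57 against 25.93 and 24.7 CPM, 0.83, adjusted p = 0.00825). *Tgfbr1* was not called in any blood EC population tested by itself. In lymphatic ECs *Ltbp1* was at 28.25 and 24.85 against 142.7 and 191.3 CPM (−2.71, SE 0.17, adjusted p = 2.14e-05), *Tgfb3* at 66.81 and 57.35 against 34.06 and 24.59 CPM (1.01, adjusted p = 0.00423) and *Tgfb1* at 376.4 and 387.5 against 252.8 and 267.8 CPM (0.49, adjusted p = 0.0128). *Tgfbr2* (−0.17, SE 0.13) and *Tgfbr3* (−0.08, SE 0.14) were not called in lymphatic ECs, where Lymph-Cap, the population with more *Tgfbr2* in WT and a lower level in KO, made up more of the KO cells. Called were 5 of 9 members in non-lymphatic ECs (36.2% of all genes) and 3 of 9 in lymphatic ECs (24.8%). Without the correction between libraries the non-lymphatic values were −3.31 for *Ltbp1*, 1.05 for *Tgfbr2*, 0.97 for *Tgfbr3*, −1.49 for *Tgfb2* and 0.82 for *Tgfbr1*.

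**Figure D4:**
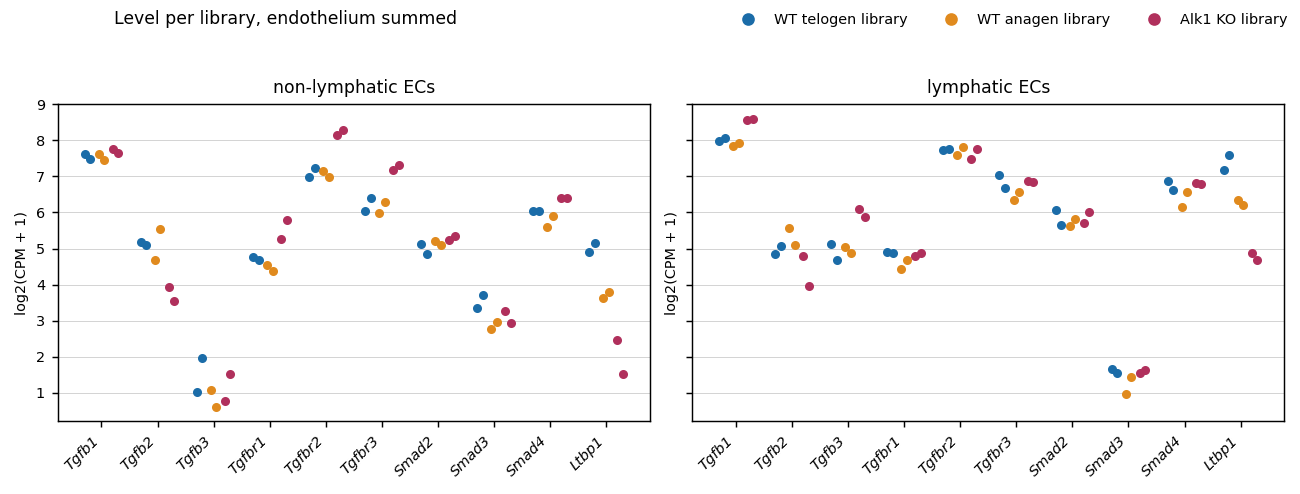
Levels of the 10 members in all non-lymphatic ECs and all lymphatic ECs, as log2(CPM + 1), with 1 point for each of the 6 libraries coloured by group. *Ltbp1* is lowest in the KO libraries of both sums (1.863 to 4.539 and 24.85 to 28.25 CPM), and *Tgfbr2* is highest in the KO libraries of non-lymphatic ECs (282.6 and 311.5 CPM).

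The responses to the KO were compared between lymphatic and blood ECs directly. *Tgfbr2* differed, with the lymphatic response lower by 1.14 on the log2 scale (−1.14, SE 0.15, adjusted p = 5.14e-05), and so did *Tgfbr3* (−0.93, SE 0.19, adjusted p = 0.00258, and −0.58 with 0.124 without telogen S1) and *Tgfbr1* (−0.90, SE 0.25, adjusted p = 0.0157, lost without telogen S1 at 0.11, telogen S2 at 0.104 or KO S2 at 0.0647). Set against all non-lymphatic ECs, the differences were −1.30, −1.09 and −0.98 for *Tgfbr2*, *Tgfbr3* and *Tgfbr1*, and 0.83 (adjusted p = 0.0372) for *Tgfb2*. *Ltbp1* did not pass the test in either (0.53, SE 0.32, adjusted p = 0.293, and 0.56, SE 0.33, adjusted p = 0.245). The *Tgfbr2* response of perineurial-like cells was also below that of blood ECs (−1.41, SE 0.25, adjusted p = 2.78e-05). Called were 3 of 10 members for lymphatic against blood ECs (17.5% of all genes), 4 of 10 against all non-lymphatic ECs (22.2%) and 1 of 10 for perineurial-like cells (6.90%).

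The wider pathway in the KO was compared by its lists. In lymphatic ECs 6 of the 32 other pathway genes tested were higher and 14 lower, with 6 of 8 genes for latency and activation lower, where 24.8% of all genes were called, 1288 higher and 1440 lower. In non-lymphatic ECs 4 of 33 were higher and 10 lower, where 36.2% of all genes were called. The ligand-binding integrin subunit *Itgav* was lower in Artery (51.54 and 43.02 against 16.65 and 12.74 CPM, −1.68), and the reported target *Tgfbi*, a matrix protein, was higher in Lymph-Col (15.94 and 16.12 against 277.4 and 128.2 CPM, 3.59). *Smad6* was at 0 and 0 CPM in telogen Lymph-Cap and at 34.38 and 17.73 CPM in KO. *Eng* in Lymph-Cap was at 220.4 and 214.2 CPM in telogen and 510.8 and 535.6 CPM in KO. In blood ECs *Eng* was at 601.6 and 618.8 CPM in telogen and 402.3 and 419.1 CPM in KO. For the Lymph-Cap differences, a different mix of cells under that name and a difference within them cannot be told apart. *Ccn2*, another reported target, was higher in perineurial-like cells (129.2 and 109.2 against 853.8 and 1005 CPM, 2.87), where *Col1a1* was lower (−4.02). Of the reported targets tested there, 3 of 9 were higher and 4 lower, where 20.7% of all genes were called. In Lymph-Col 2 of 7 were higher and 4 lower (17.7% of all genes). The fibrillar collagen *Col1a1* was lower in 8 populations, in fibroblast-like cells by 4.16 (log2 fold change −4.16) and in Lymph-Cap, at 1.322 and 0.7387 against 26.07 and 42.83 CPM. Markers of other cells moved with the groups as well. Macrophage-like markers in Lymph-Cap summed to 106.6 and 184.2 CPM in telogen and 19.83 and 20.68 CPM in KO, and perineurial-like markers in Lymph-Col to 684.7 and 643.7 against 331.2 and 400.2 CPM. In Artery perineurial-like markers were at 124.3 and 139.8 against 145.4 and 143.3 CPM, and fibroblast-like markers at 41.65 and 39.71 against 33.29 and 27.08 CPM. The part of such RNA in the member differences was not tested.

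Genes whose levels followed a member most closely over the 58 library and population sums were found among 6202 genes, as a description, since these sums share libraries and depth. *Tgfb3* was closest to *Plce1* (Pearson's r 0.92) and *Igfbp5* (0.87), *Tgfbr3* to *Cdr2l* (0.92) and *Grb10* (0.90), *Smad4* to *Rsbn1* (0.94), *Tgfb1* to the endothelial and blood-cell transcription factor *Fli1* (0.88), *Tgfb2* to *Clstn1* (0.81), and *Tgfbr1* to *Hs6st2* (0.78). *Ltbp1* was close to the related *Ltbp3* (0.77). The closest genes to *Tgfbr2* (*Azi2*, 0.64), *Smad2* (*Kif2a*, 0.67) and *Smad3* (*Birc3*, 0.62) were less alike. Some sums came from few cells. *Smad4*, for example, was at 0 CPM in mast-like cells of anagen S1 and at 9.021 CPM in macrophage-like cells of anagen S2. The weight of such sums in these correlations was not tested.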

How the data were processed

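Dorsal skin tdTomato+ cells were sequenced on the 10x 3′ v3 platform, 1 library per mouse. The values deposited by the authors are raw UMI counts per gene and cell, made with Cell Ranger 6.0.1 on mm10, and the submitters' notes also name Seurat 4.0. Cells with 200 to 5000 genes and under 10% mitochondrial UMIs were kept. They were clustered with scanpy 1.11.5 (3000 variable genes without the 47 pathway genes, 30 components, correction between libraries, 20 neighbours, Leiden resolution 0.6), and a cluster was named from at least 3 markers at 2-fold in 25% of its cells. Doublets were removed only in an alternative. Counts were summed per library and population (at least 10 cells) and tested with the quasi-likelihood F test of edgeR 4.0.16 (R 4.3.3) with filterByExpr and TMM, with the library as a block between populations. P-values were adjusted over all genes by Benjamini-Hochberg. Differences were called at a fold above 1.3 together with an adjusted p under 0.05. The test was tried on simulated data first. DESeq2 1.42.0, other filters and left-out libraries were alternatives. In each comparison, up to 3 called other pathway genes with the widest difference and no overlap of libraries between groups were listed. Only some of those listed are named in the text, and they were picked with their values known. A few more were named after their values were seen. The members and lists were chosen with earlier results of these data known. The sums of all non-lymphatic and all lymphatic ECs were chosen after seeing the data. Between groups, the p-values measure the spread between mice, 2 per group. Between populations and for differences in response, the library was a block. There they measure how the difference between populations varied from library to library. Counting limits cover counting error only. Some results are not reported here.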

Additional observations from a re-analysis of the deposited data

Results flagged for a closer look

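The response of 1 population differed from that of another, by an interaction test with Benjamini-Hochberg adjustment over all genes in edgeR, for the members given here. The difference between anagen and telogen in *Ltbp1* was more positive in perineurial-like cells than in blood ECs by 1.3877 on the log2 scale (adjusted p = 0.0222). It was not called with fewer than 5% mitochondrial UMIs (1.258, adjusted p = 0.24), without the library as a block (1.396, adjusted p = 0.0751), by DESeq2 (1.413, adjusted p = 0.0814) or without telogen S2 (1.133, adjusted p = 0.0621). The KO response was lower in lymphatic than in blood ECs for *Tgfbr2* (−1.1431), *Tgfbr3* (−0.9338) and *Tgfbr1* (−0.9008), and lower in perineurial-like cells than in blood ECs for *Tgfbr2* (−1.4145).

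Without the correction between libraries the *Tgfbr3* value was −0.038 (adjusted p = 0.942) and the *Tgfbr1* value −0.656 (adjusted p = 0.125). Against all non-lymphatic ECs, which do not depend on the names of the blood EC clusters, the values were −1.2979 for *Tgfbr2*, −1.0929 for *Tgfbr3*, −0.9791 for *Tgfbr1* and 0.8263 for *Tgfb2*. Without the correction these were −1.2562, −1.0815, −0.9829 and 0.8423, and all 4 were called.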

How the results depend on the processing

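Of the 86 calls of members, 86 were kept with at least 500 genes per cell, 84 with likely doublets removed, 75 of the 85 tested with fewer than 5% mitochondrial UMIs, and 72 with DESeq2. Without the correction between libraries 74 of 82 were kept and 2 reversed, and 68 were kept without telogen S1 and 72 without telogen S2. Between stages 1 member difference was called, against 2 with at least 500 genes, 0 with fewer than 5% mitochondrial UMIs, 2 at Leiden resolution 1.2, 5 with no filter on low counts and 1 to 4 with a library left out. Over all genes the stage calls were 774, against 408 with fewer than 5% mitochondrial UMIs, 476 without likely doublets, 4425 with no filter, 445 with all 6 libraries in 1 fit and 868 to 3729 with a library left out. The KO calls of members were 23, against 14 without the correction between libraries and 16 to 24 with a library left out, and those of all genes were 16059, against 8387 without the correction, 9519 by DESeq2 and 8797 to 15157 with a library left out. Differences in response numbered 5, against 3 without the correction, 3 by DESeq2 and 3 to 6 with a library left out. In KO Cap-Kdr without the correction, *Tgfbr2* (−0.721), *Tgfbr3* (−0.221) and *Fn1* (1.467) turned in direction, where 26 of 251 KO cells kept the name.

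The replicate numbers were added as a block between groups. The number is not stated to mark a shared litter or day. Deviations of same-numbered libraries had median correlations of 0.07 (KO, from −0.16 to 0.17) and 0.01 (stages, from −0.10 to 0.28). Such correlations cannot show whether same-numbered libraries shared a litter or day. With the replicate block the stage calls were 0 for members and 1371 for all genes, *Ltbp1* in Lymph-Col being at −0.982 (adjusted p = 0.115), and the KO calls were 23 and 16353.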
